A study of Mus musculus with 8 samples.

Results

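The RNA levels of 41 genes of the urea cycle and of amino acid catabolism were followed through 8 RNA-sequencing libraries of cultured mouse liver cells. The genes were taken from a list by symbol, and all 41 were found among the 23467 genes of the deposited table. By role they comprise 7 genes of the urea cycle, 10 of the breakdown of tyrosine, phenylalanine and tryptophan (aromatic group), 11 of the methionine cycle and of the 1-carbon units that it exchanges with glycine and sarcosine, and 13 of the breakdown of other amino acids. Hepatoblasts, the fetal precursors of hepatocytes and of biliary epithelial cells (BECs), came from E14.5 livers of a B6;129 mixed strain and were kept on collagen. They were sequenced as hepatoblasts (iHBs), after 5 days with 12.5 ng/ml of the cytokine Oncostatin M (iHPs, differentiated to hepatocytes), or after 14 days on Matrigel (iBECs, differentiated to BECs). Control cells were labelled wild type and gave 1 library at each of the 3 stages. Cells labelled Lats1-/-;Lats2f/fl;Alb-cre (L1L2_Alb) gave 1 iHB, 2 iHP and 2 iBEC libraries. By this label, *Lats1* is deleted throughout the animal, and *Lats2* is floxed and open to removal by a Cre driven from the albumin promoter, thus in cells of the hepatoblast and hepatocyte lineage. The labels do not say whether the libraries are from separate embryos or cultures, and both libraries of a pair carry the same replicate number in their descriptions. The p-values therefore measure the spread between these libraries, which may be technical. In the fit across stages they also take in how far the difference between the labels varies from stage to stage.

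Hepatocytes dispose of the nitrogen of amino acids as urea. CPS1 and OTC load ammonia onto ornithine inside mitochondria, and ASS1, ASL and ARG1 complete the cycle in the cytosol. The carbon skeletons are broken down by largely liver-restricted enzymes, many of which appear around birth. The liver is also the main site at which methionine is turned into S-adenosylmethionine, the methyl donor of the cell, and homocysteine is remethylated or passed on to cysteine.

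The libraries held 18436865 to 33229075 reads. Values are RPKM, read numbers per kilobase of gene, scaled to the size of the library, and differences are given on the log2(RPKM + 1) scale, which understates the change of genes at low levels. *Lats1* ranged from 5.38 to 11.2 RPKM in the control libraries and from 7.12 to 22.7 RPKM in those labelled L1L2_Alb, and *Lats2* from 6.90 to 10.1 RPKM and from 10.9 to 27.6 RPKM, so the RNA levels of the targeted genes did not show the loss that the label states. The table holds 1 value per gene, and the deleted exons were not examined. The libraries are therefore named by their label. Markers of the labelled cell types did not go one way in control iBECs. Of the biliary markers, *Krt7* and *Krt19*, the BEC keratins, were lower there (62.3 and 83.7 RPKM) than in control iHBs (400 and 273 RPKM), as were *Epcam*, *Cldn4*, *Cldn7* and *Cftr*. *Spp1* (23271 against 1706 RPKM) and *Sox9* (13.3 against 5.53 RPKM) were higher, and the biliary sum, mostly *Spp1*, was the highest of the 8 libraries (23487 against 2649 RPKM in control iHBs). Of the 8 hepatoblast and hepatocyte markers, *Alb* (6162 against 2485 RPKM) and *Hnf4a* (99.5 against 48.4 RPKM) were higher in control iBECs than in control iHBs. So were *Ttr*, *Apoa1*, *Dlk1*, *Trf* and *Ahsg*, while *Afp* (779 against 3687 RPKM) was lower. Their sum, too, was the highest of the 8 libraries in control iBECs (38245 RPKM, against 18604 and 17911 RPKM in the L1L2_Alb-labelled iBECs). It was 16980 RPKM (control) and 15368 RPKM (L1L2_Alb label) in iHBs, and 28227 RPKM (control) and 14991 and 13094 RPKM in iHPs. In the L1L2_Alb-labelled iHB library this sum was mostly *Apoa1* (8670 RPKM, against 2451 RPKM in control iHBs). Of the 8 markers, 5 were lower there by at least 1 on the log2 scale, and 1, *Apoa1*, was higher by that much. The summed level of 9 erythroid genes, with *Hbb-y* at 0 throughout, was 251 RPKM in control iHBs against 47.5 RPKM in the L1L2_Alb-labelled library, and 167 against 13.0 and 31.7 RPKM in iHPs. The sum of 10 fibroblast and stellate cell genes was 4666 against 1636 RPKM in iHBs, 2892 against 744 and 1199 RPKM in iHPs, and 2674 against 3791 and 1705 RPKM in iBECs. The sum of 8 macrophage genes ranged from 852 to 3094 RPKM and that of 7 endothelial genes from 3.01 to 24.1 RPKM over the 8 libraries.

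**Figure D1:**
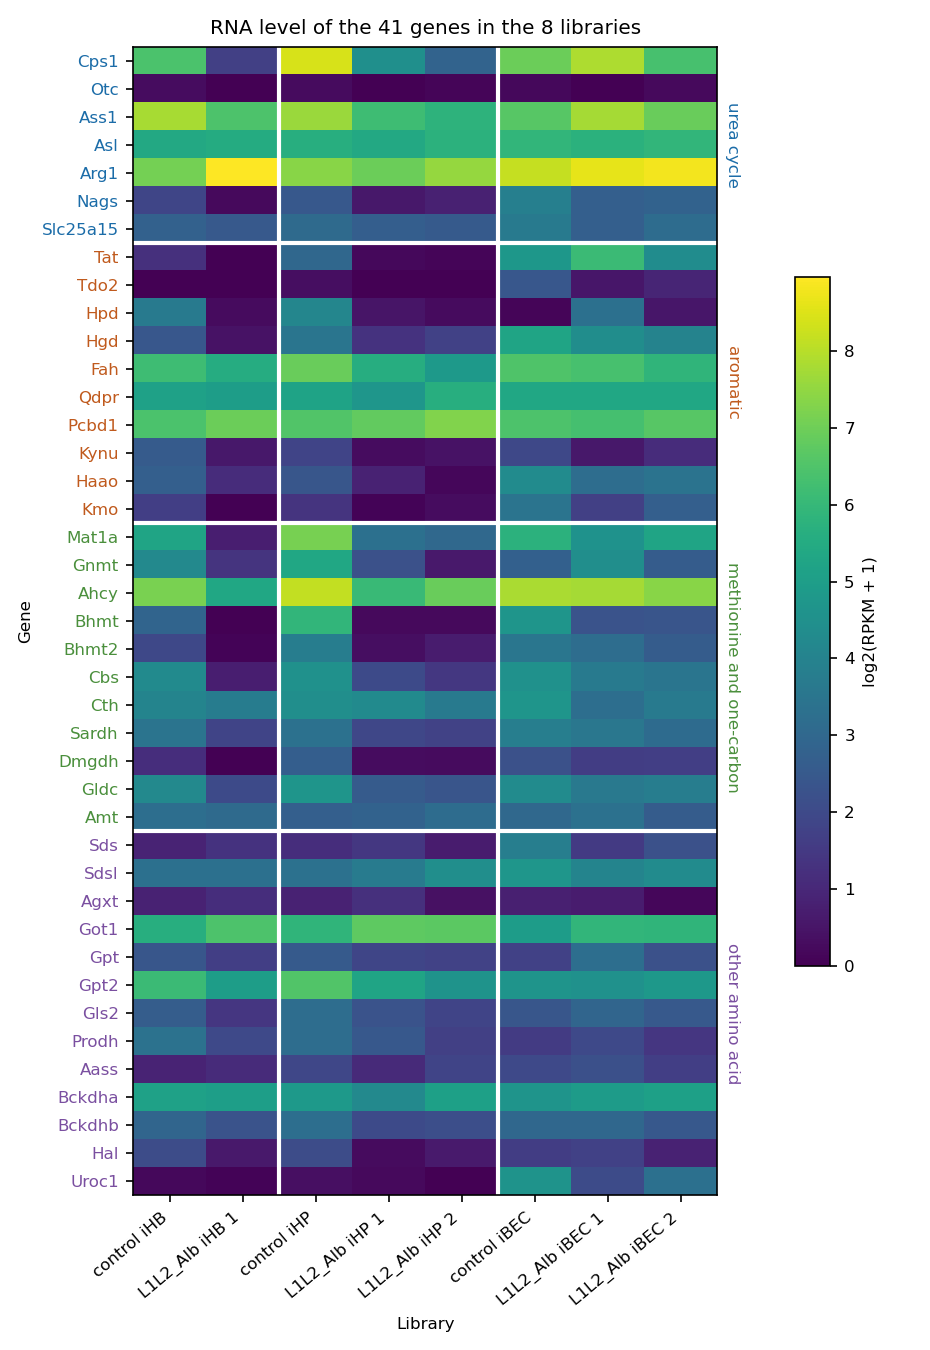
Levels of the 41 genes as log2(RPKM + 1), color scale at the right, in the 8 libraries (columns, ordered by stage) and 4 groups (rows). Genes of the methionine group such as *Bhmt*, *Mat1a* and *Cbs* are dark in the L1L2_Alb-labelled iHB and iHP columns and lighter in iBECs, while *Arg1*, *Asl*, *Qdpr* and *Pcbd1* stay light in every column.

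Whether these genes differ between the L1L2_Alb and control labels was examined across the 3 stages with limma, with the stage as a block. Of the 41 genes, 38 reached the mean of 1 RPKM required for the test, and 12 of them were lower in the L1L2_Alb-labelled libraries at an adjusted p under 0.05, where 3.37% of all 13421 genes tested were lower. The same 13421 genes gave 452 decreases and 832 increases, but 605 and 586 with upper-quartile scaling, under which 13 of the 38 were lower. The single gene that was higher was *Got1*, where 6.2% of all genes were higher, and 25 did not pass. The median log2 fold change of the 38 genes was -0.90, against 0.06 over all genes, and 18 of them lay below the control of their stage in 5 of 5 L1L2_Alb-labelled libraries (10.1% of all genes). In the methionine group 7 of 11 tested genes were lower, in the aromatic group 4 of 9, in the urea cycle 1 of 6, and among the other amino acid genes 0 of 12, a group in which 3 were lower at an unadjusted p under 0.05. In these bulk libraries, fewer cells of a type and less RNA per cell cannot be told apart. The count of 12 became 2 without the iHB stage, 1 without the iHP stage, 7 without L1L2_Alb iHP replicate 1 and 21 without the iBEC stage, where the median of the genes became -1.38 (-0.67 without iHPs).

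By stage, the median difference from the single control library amounted to -1.22 for iHBs, -1.47 for iHPs and -0.30 for iBECs, against -0.09, -0.01 and 0.25 over all genes. In iHBs 22 of the 38 genes were lower by at least 1 on the log2 scale (8.99% of all genes), in iHPs 24 (11.5%) and in iBECs 9 (2.49%). Those higher by at least 1 numbered 1 in iHBs (5.6% of all genes), 0 in iHPs (7.71%) and 2 in iBECs (6.67%). With 1 control library per stage these counts carry no test. The erythroid and fibroblast sums and that of the hepatoblast and hepatocyte markers, given above, were also lower in the L1L2_Alb-labelled iHB and iHP libraries. Of these 8 hepatoblast and hepatocyte markers 5 were lower across stages and 0 higher (3.37% and 6.2% of all genes). Their median difference was -1.48 in iHBs and -1.88 in iHPs. The part of these cell types in the differences was not tested.

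**Figure D2:**
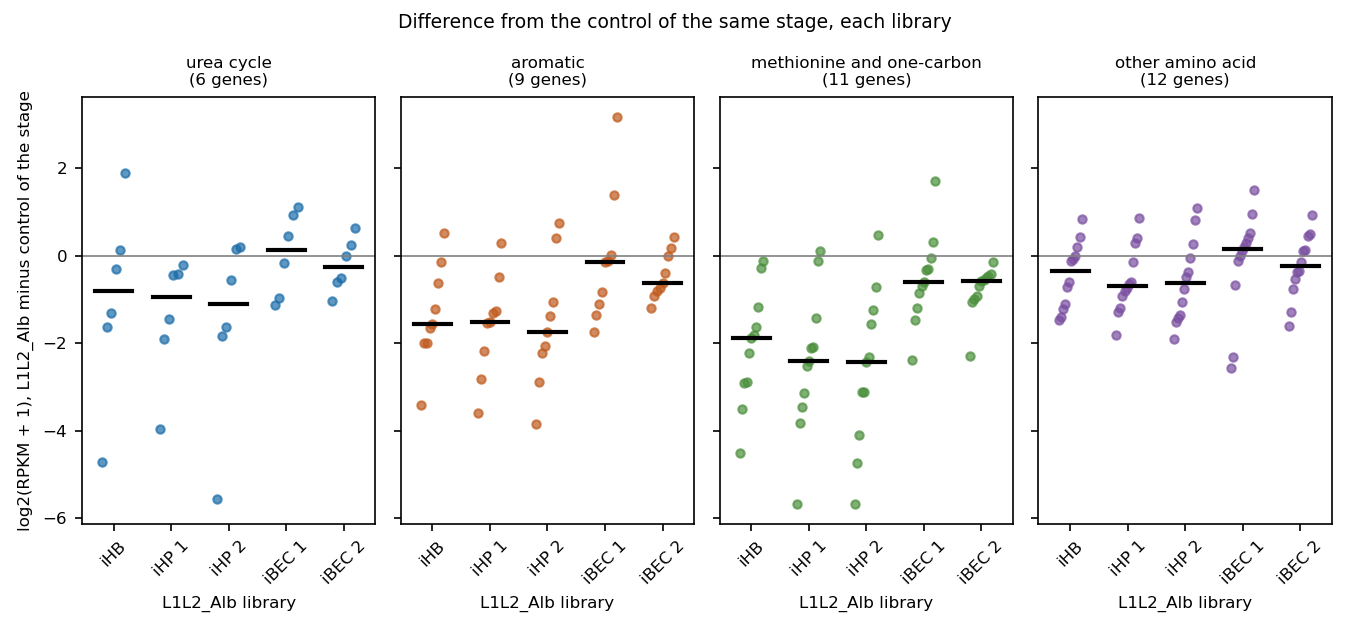
Difference in log2(RPKM + 1) between each L1L2_Alb-labelled library and the control library of its stage, for the tested genes of each group (points) with the median (black bar). The medians of the methionine group lie at -1.88 in iHB, at -2.40 and -2.44 in the iHP libraries, and at -0.60 and -0.57 in the iBEC libraries.

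Of the 6 tested urea cycle genes *Nags* was lower and 5 did not pass. In iHBs and iHPs *Cps1* and *Ass1* were below the control in each L1L2_Alb-labelled library, and *Asl* and *Arg1* lay on either side of it. *Cps1*, the mitochondrial enzyme that commits ammonia to the cycle, stood at 85.0 RPKM (control) and 2.24 RPKM (L1L2_Alb label) in iHBs, 340 RPKM (control) and 20.9 and 6.24 RPKM in iHPs, and 123 RPKM (control) and 233 and 80.4 RPKM in iBECs. It was thus 37.9-fold lower in iHBs and 16.2-fold and 54.5-fold lower in iHPs, while the iBEC libraries lay on either side of their control. Across stages its log2 fold change was -2.96 (standard error 0.92, limma adjusted p = 0.0827), which did not pass. The test of *Cps1* passed without the iBEC stage, with an adjusted p of 0.00399, and without L1L2_Alb iBEC replicate 1 (0.0333), and over its 15 alternatives the adjusted p ranged from 0.00399 to 0.453. *Nags* makes N-acetylglutamate, the compound without which CPS1 is inactive. It was at 2.62 RPKM (control) and 0.16 RPKM (L1L2_Alb label) in iHBs, 4.53 RPKM (control) and 0.49 and 0.78 RPKM in iHPs, and 13.6 RPKM (control) and 5.65 and 6.11 RPKM in iBECs. All 5 L1L2_Alb-labelled libraries were below their control, and the log2 fold change was -1.48 (standard error 0.22, limma adjusted p = 0.00689), a call that was lost without the iHP stage (adjusted p = 0.0799). An antisense gene, *Gm11586*, overlaps *Nags* in exons, and the library kit does not mark the strand. Reads of both cannot be told apart.

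The remaining steps of the cycle did not pass the test. *Slc25a15*, the mitochondrial ornithine carrier, ranged from 5.98 to 11.9 RPKM in the control and from 4.65 to 8.10 RPKM in the L1L2_Alb-labelled libraries (log2 fold change -0.53, limma adjusted p = 0.135, lower in 5 of 5). *Ass1*, which joins citrulline to aspartate, was at 219 RPKM (control) and 88.1 RPKM (L1L2_Alb label) in iHBs, 197 RPKM (control) and 71.9 and 54.3 RPKM in iHPs, and 100 RPKM (control) and 217 and 119 RPKM in iBECs. It was lower than its control in iHBs and iHPs and higher in both iBEC libraries, with a log2 fold change of -0.71 (standard error 0.43, limma adjusted p = 0.35). *Asl*, which releases arginine, was at 41.2 RPKM (control) and 45.2 RPKM (L1L2_Alb label) in iHBs, 48.1 RPKM (control) and 41.2 and 53.2 RPKM in iHPs, and 58.8 RPKM (control) and 52.2 and 58.7 RPKM in iBECs. The genotypes overlapped, and the 95% interval of its log2 fold change ran from -0.38 to 0.36. *Arg1*, which splits arginine into urea and ornithine and is also made by macrophages, was at 135 RPKM (control) and 501 RPKM (L1L2_Alb label) in iHBs, 165 RPKM (control) and 122 and 188 RPKM in iHPs, and 292 RPKM (control) and 398 and 453 RPKM in iBECs. It was above its control in 4 of 5 libraries, most in iHBs at 3.70-fold. Its log2 fold change of 0.67 (standard error 0.34) had an adjusted p of 0.259 from limma. Macrophage genes summed to 2409 RPKM (control) and 2239 RPKM (L1L2_Alb label) in iHBs, and to 1163 RPKM (control) and 2509 and 3094 RPKM in iBECs, and their part in the level of *Arg1* was not tested. *Otc*, which makes citrulline, lay below the filter, with at most 0.23 RPKM (15 reads, in control iHB) and with 0 reads in the L1L2_Alb-labelled iHB, iHP 1 and iBEC 1 libraries.

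The ratio of *Cps1* to *Arg1*, which act at the entry and the exit of the cycle, was computed from the RPKM values. It was 0.63 in control iHB and 0.0045 in the L1L2_Alb-labelled library, 2.06 in control iHP against 0.17 and 0.033, and 0.42 in control iBEC against 0.59 and 0.18. In iHBs and iHPs the ratio was lower in each L1L2_Alb-labelled library than in the control of its stage, and in iBECs the control lay between the pair.

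In the aromatic group *Hgd*, of tyrosine breakdown, and *Kmo*, *Kynu* and *Haao*, of the kynurenine branch of tryptophan breakdown, were lower, and 5 tested genes did not pass. *Hgd*, homogentisate dioxygenase, was at 4.41 RPKM (control) and 0.36 RPKM (L1L2_Alb label) in iHBs, 10.3 RPKM (control) and 1.48 and 2.37 RPKM in iHPs, and 36.4 RPKM (control) and 20.2 and 15.3 RPKM in iBECs. Levels were higher in iBECs than in iHBs in both genotypes, and the L1L2_Alb-labelled libraries stayed below their control at each stage, with a log2 fold change of -1.63 (standard error 0.26, limma adjusted p = 0.00904). *Haao*, which makes the precursor of quinolinate and NAD, was at 5.60 RPKM (control) and 1.22 RPKM (L1L2_Alb label) in iHBs, 4.23 RPKM (control) and 0.80 and 0.12 RPKM in iHPs, and 19.1 RPKM (control) and 8.30 and 9.56 RPKM in iBECs. Its log2 fold change was -1.48 (standard error 0.26, limma adjusted p = 0.012). Upstream in the same branch, *Kmo*, which hydroxylates kynurenine, ranged from 1.56 to 9.85 RPKM in the control libraries and from 0 to 5.52 RPKM in the L1L2_Alb-labelled libraries (log2 fold change -1.33, limma adjusted p = 0.0243). In iHBs 153 reads of *Kmo* in the control stood against 0 reads, at least 51.4-fold lower with 3 reads of that library as the floor. *Kynu*, which cleaves hydroxykynurenine, ranged from 2.56 to 4.92 RPKM in the controls and from 0.24 to 1.21 RPKM in the L1L2_Alb-labelled libraries, so that the genotypes did not overlap (log2 fold change -1.47, limma adjusted p = 0.0121). The calls of *Hgd*, *Haao*, *Kynu* and *Kmo* were lost without the iHB stage and without the iHP stage, with adjusted p values up to 0.14, and that of *Kmo* also without L1L2_Alb iHP replicate 1 and with no filter on low values.

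The genes of the first steps of tyrosine breakdown were below the control in iHBs and iHPs but not in all iBECs. *Tat*, the aminotransferase that opens the pathway and a classical perinatal liver gene, was at 1.35 RPKM (control) and 0.015 RPKM (L1L2_Alb label) in iHBs, 7.05 RPKM (control) and 0.14 and 0.079 RPKM in iHPs, and 25.7 RPKM (control) and 68.7 and 19.4 RPKM in iBECs. *Tat* was therefore near the floor in the L1L2_Alb-labelled iHB and iHP libraries, with 1, 6 and 4 reads, and on either side of the control in iBECs, and the log2 fold change of -1.19 (standard error 0.62) did not pass (limma adjusted p = 0.271, and 0.0189 without the iBEC stage). *Hpd*, the next enzyme, was at 11.8 RPKM (control) and 0.20 RPKM (L1L2_Alb label) in iHBs, 16.3 RPKM (control) and 0.44 and 0.21 RPKM in iHPs, and 0.088 RPKM (control) and 8.84 and 0.46 RPKM in iBECs. Here the control iBEC library was the lowest of the 8, with 4 reads, and the L1L2_Alb-labelled iBEC libraries differed from each other, with 312 and 15 reads. Its log2 fold change was -1.62 (standard error 1.05, limma adjusted p = 0.377, and 0.0026 without the iBEC stage). In L1L2_Alb iBEC replicate 1, fibroblast genes were also at their highest among the iBEC libraries (3791 RPKM summed), and their part in the level of *Hpd* was not tested. *Fah*, the last enzyme, whose loss causes tyrosinaemia, ranged from 72.4 to 120 RPKM in the controls and from 28.0 to 81.6 RPKM in the L1L2_Alb-labelled libraries, below its control in 5 of 5 (log2 fold change -0.92, limma adjusted p = 0.0927). *Tdo2*, the entry enzyme of tryptophan breakdown, was not tested, with 0 RPKM in both iHB libraries, 0.26 RPKM (12 reads) in control iHP against 0 and 0 RPKM, and 4.46 RPKM (control) and 0.47 and 0.92 RPKM in iBECs.

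The recycling enzymes of tetrahydrobiopterin, the cofactor of phenylalanine hydroxylase, did not pass. *Qdpr*, which an antisense gene overlaps in exons, was at 34.1 RPKM (control) and 30.8 RPKM (L1L2_Alb label) in iHBs, 36.1 RPKM (control) and 25.5 and 48.3 RPKM in iHPs, and 39.5 RPKM (control) and 39.7 and 39.4 RPKM in iBECs. *Pcbd1* was at 84.3 RPKM (control) and 122 RPKM (L1L2_Alb label) in iHBs, 91.4 RPKM (control) and 111 and 155 RPKM in iHPs, and 87.3 RPKM (control) and 79.4 and 98.1 RPKM in iBECs. The 95% intervals of their log2 fold changes ran from -0.55 to 0.45 for *Qdpr* and from -0.11 to 0.79 for *Pcbd1*.

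The methionine group had the most decreases of the 4, with 7 of 11 genes lower and 9 of 11 below the control in 5 of 5 libraries. *Bhmt*, which remethylates homocysteine with betaine in the liver, was at 6.46 RPKM (control) and 0 RPKM (L1L2_Alb label) in iHBs, 58.6 RPKM (control) and 0.16 and 0.16 RPKM in iHPs, and 24.3 RPKM (control) and 3.88 and 4.13 RPKM in iBECs. In reads, this was 381 against 0 in iHBs, at least 128-fold lower with 3 reads as the floor, and 3399 against 6 and 7 in iHPs. The log2 fold change of -3.71 (standard error 0.55, limma adjusted p = 0.00775) was the largest decrease of the 38 genes and passed under each of its 15 alternatives. *Mat1a*, the liver form of the enzyme that makes S-adenosylmethionine, was at 36.8 RPKM (control) and 0.67 RPKM (L1L2_Alb label) in iHBs, 139 RPKM (control) and 8.84 and 7.18 RPKM in iHPs, and 53.9 RPKM (control) and 22.9 and 36.5 RPKM in iBECs. *Mat1a* was 55-fold lower in iHBs and 15.8-fold and 19.4-fold lower in iHPs, but 2.36-fold and 1.48-fold lower in iBECs (log2 fold change -2.99, standard error 0.59, limma adjusted p = 0.0206). *Cbs*, which commits homocysteine to cysteine, was at 18.4 RPKM (control) and 0.70 RPKM (L1L2_Alb label) in iHBs, 22.5 RPKM (control) and 3.09 and 1.73 RPKM in iHPs, and 22.3 RPKM (control) and 11.97 and 10.3 RPKM in iBECs. The controls hardly differed between stages for this gene, and the log2 fold change was -2.33 (standard error 0.42, limma adjusted p = 0.0153).

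*Bhmt2*, a paralog of *Bhmt* that uses S-methylmethionine, ranged from 2.87 to 12.9 RPKM in the controls and from 0.050 to 8.32 RPKM in the L1L2_Alb-labelled libraries (log2 fold change -1.93, limma adjusted p = 0.0351). Reads of the paralogs may have been split by the counting, which is not given in the sources used here. *Dmgdh*, which removes a methyl group from the dimethylglycine that BHMT leaves, ranged from 1.26 to 5.43 RPKM in the controls and from 0 to 2.14 RPKM in the L1L2_Alb-labelled libraries (log2 fold change -1.41, limma adjusted p = 0.0363), with 107 reads against 0 in iHBs, at least 36.0-fold lower. *Sardh*, which acts on sarcosine, the product of DMGDH, ranged from 9.11 to 13.3 RPKM in the controls and from 2.45 to 10.7 RPKM (log2 fold change -1.16, limma adjusted p = 0.0293). The genes of consecutive enzymes of betaine breakdown thus fell, and *Gldc*, the decarboxylase of the glycine cleavage system, fell too (17.8 to 24.7 RPKM in the controls, 3.05 to 13.0 RPKM in the L1L2_Alb-labelled libraries, log2 fold change -1.63, limma adjusted p = 0.0194). The calls were lost without the iHB and without the iHP stage for *Mat1a*, *Cbs*, *Bhmt2*, *Dmgdh*, *Sardh* and *Gldc*, without L1L2_Alb iHP replicate 1 for *Mat1a*, *Bhmt2*, *Dmgdh* and *Sardh*, without L1L2_Alb iBEC replicate 2 for *Bhmt2*, *Dmgdh* and *Sardh*, and without L1L2_Alb iHP replicate 2 for *Bhmt2* and *Dmgdh*. With the libraries of a pair averaged, which bears on these calls because the pairs may be technical, those of *Mat1a*, *Bhmt2*, *Dmgdh*, *Sardh* and *Gldc* were lost and 2 of the 7 passed, *Bhmt* and *Cbs*. With no filter on low values *Bhmt* alone of the 7 passed. Antisense genes overlap *Bhmt*, *Dmgdh* and *Sardh* in exons and cannot be told apart from them in these libraries.

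Among the methionine genes that did not pass, *Ahcy*, which hydrolyses S-adenosylhomocysteine in all cells, ranged from 141 to 286 RPKM in the controls and from 39.7 to 219 RPKM in the L1L2_Alb-labelled libraries, below its control in 5 of 5 (log2 fold change -1.19, limma adjusted p = 0.0619). *Ahcy* was called in 5 of 15 alternatives, among them the fit without L1L2_Alb iBEC replicate 1 and the looser threshold of 0.1. *Gnmt*, which spends surplus methyl groups on glycine, was at 17.9 RPKM (control) and 1.55 RPKM (L1L2_Alb label) in iHBs, 40.02 RPKM (control) and 3.63 and 0.55 RPKM in iHPs, and 5.69 RPKM (control) and 20.7 and 5.08 RPKM in iBECs. Like *Hpd* it was low in the L1L2_Alb-labelled iHB and iHP libraries and highest among the iBECs in L1L2_Alb replicate 1 (log2 fold change -1.94, limma adjusted p = 0.204). *Cth*, the step after CBS, ranged from 15.7 to 24.7 RPKM against 8.35 to 18.7 RPKM (log2 fold change -0.67, limma adjusted p = 0.133). *Amt*, the partner of GLDC, was at 8.35 RPKM (control) and 7.65 RPKM (L1L2_Alb label) in iHBs, 5.58 RPKM (control) and 6.10 and 8.11 RPKM in iHPs, and 7.13 RPKM (control) and 9.07 and 5.10 RPKM in iBECs. Its 95% interval ran from -0.47 to 0.58. Subunits of the same glycine cleavage complex therefore had different values, with the interval of *Gldc* running from -2.35 to -0.90. The difference between these genes was not tested. Summed over the 11 genes, the group held 277 RPKM (control) and 68.7 RPKM (L1L2_Alb label) in iHBs, 624 RPKM (control) and 115 and 158 RPKM in iHPs, and 411 RPKM (control) and 328 and 266 RPKM in iBECs.

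**Figure D3:**
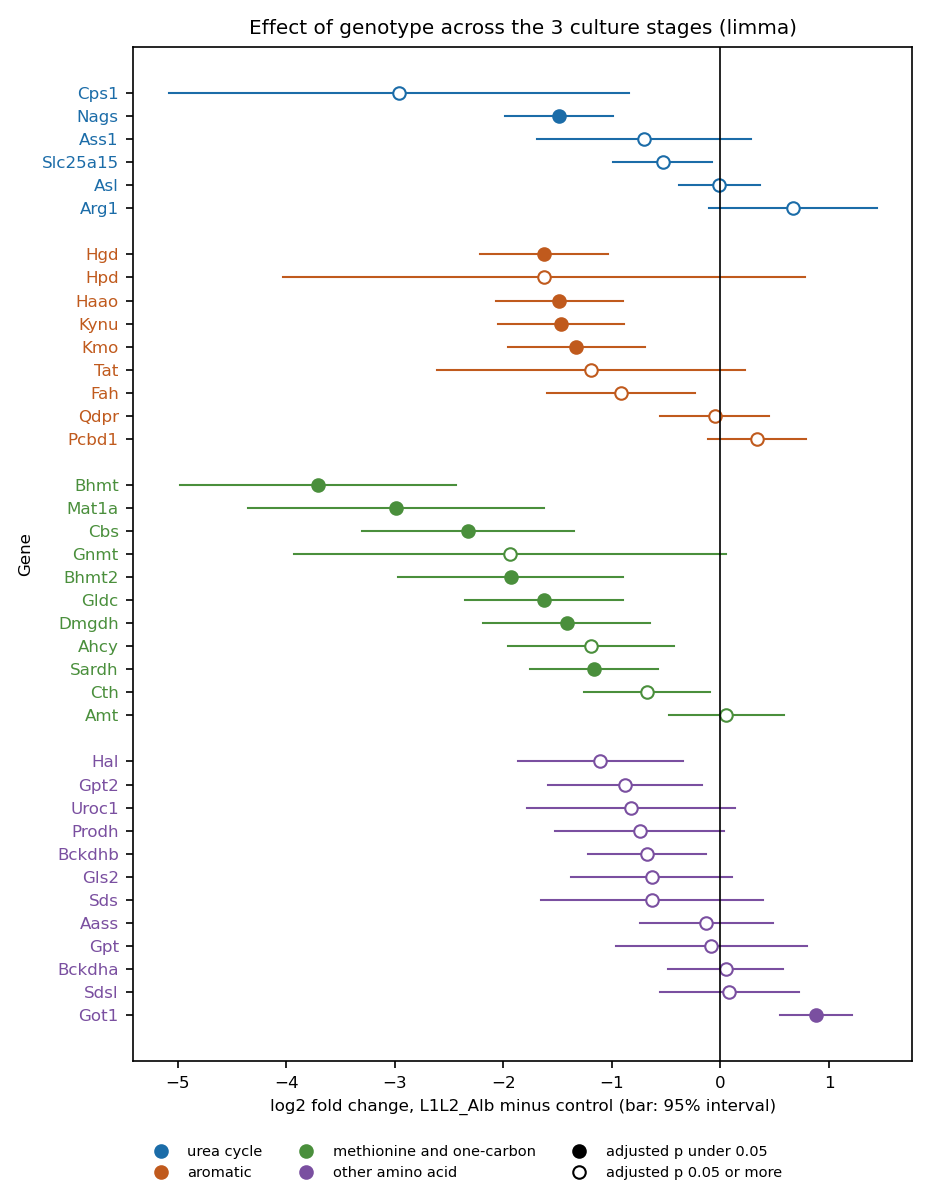
log2 fold change between L1L2_Alb-labelled and control libraries across the 3 stages for the 38 tested genes, with the 95% interval (bar), sorted within each group. Filled circles are the 13 genes with an adjusted p under 0.05, of which 12 lie left of 0 and *Got1* lies right of it.

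Among the other amino acid genes *Got1* was higher and the alanine aminotransferase genes did not pass. *Got1*, the cytosolic aspartate aminotransferase, was at 48.1 RPKM (control) and 87.2 RPKM (L1L2_Alb label) in iHBs, 57.9 RPKM (control) and 106 and 103 RPKM in iHPs, and 29.8 RPKM (control) and 58.5 and 57.8 RPKM in iBECs. Each L1L2_Alb-labelled library was 1.79-fold to 1.96-fold above its control, and the log2 fold change was 0.88 (standard error 0.14, limma adjusted p = 0.0101, higher in 5 of 5). The call was lost when any of the 3 stages was left out, with adjusted p values up to 0.083. *Gpt2*, the mitochondrial alanine aminotransferase, was at 68.8 RPKM (control) and 31.2 RPKM (L1L2_Alb label) in iHBs, 91.5 RPKM (control) and 37.1 and 23.6 RPKM in iHPs, and 23.9 RPKM (control) and 22.0 and 26.3 RPKM in iBECs. It did not pass (log2 fold change -0.88, standard error 0.31, limma adjusted p = 0.113). The ratio of *Got1* to *Gpt2* in RPKM was 0.70, 0.63 and 1.25 in control iHB, iHP and iBEC, and 2.79 in iHB, 2.86 and 4.38 in iHP, and 2.66 and 2.20 in iBEC libraries labelled L1L2_Alb. The genotypes did not overlap. *Gpt*, the cytosolic form, was at 4.24 RPKM (control) and 2.19 RPKM (L1L2_Alb label) in iHBs, 4.80 RPKM (control) and 2.70 and 2.44 RPKM in iHPs, and 2.30 RPKM (control) and 8.39 and 3.69 RPKM in iBECs. It was thus lower in iHBs and iHPs and higher in both iBEC libraries.

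Histidine breakdown starts with *Hal*, which was at 3.20 RPKM (control) and 0.52 RPKM (L1L2_Alb label) in iHBs, 3.20 RPKM (control) and 0.20 and 0.56 RPKM in iHPs, and 2.08 RPKM (control) and 2.34 and 0.82 RPKM in iBECs (log2 fold change -1.11, standard error 0.33, limma adjusted p = 0.0737). The next gene, *Uroc1*, was under 0.3 RPKM in all iHB and iHP libraries and at 23.3 RPKM (control) and 3.14 and 8.93 RPKM in iBECs (log2 fold change -0.82, limma adjusted p = 0.26). Neither gene passed, although *Hal* did without L1L2_Alb iBEC replicate 1 (adjusted p = 0.025), and L1L2_Alb-labelled libraries lay below their control in 4 of 5 and 5 of 5 cases.

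The serine and threonine dehydratase genes did not pass. *Sds* was at 0.85 RPKM (control) and 1.497 RPKM (L1L2_Alb label) in iHBs, 1.26 RPKM (control) and 1.77 and 0.60 RPKM in iHPs, and 13.2 RPKM (control) and 1.86 and 3.64 RPKM in iBECs, and exons of the protein-coding gene *Plbd2* and of an antisense gene overlap it on the opposite strand (log2 fold change -0.63, limma adjusted p = 0.424). Its neighbour and paralog *Sdsl* was at 8.92 RPKM (control) and 8.94 RPKM (L1L2_Alb label) in iHBs, 9.13 RPKM (control) and 12.4 and 20.6 RPKM in iHPs, and 25.2 RPKM (control) and 15.4 and 19.2 RPKM in iBECs (log2 fold change 0.08, limma adjusted p = 0.892). Control iBECs held the highest level of both genes. *Agxt*, which detoxifies glyoxylate, stayed below the filter, with 0.11 to 1.36 RPKM over the 8 libraries.

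Glutamine, proline, lysine and branched-chain genes did not pass in either direction. *Gls2*, the liver glutaminase, whose exons overlap *Spryd4* on the opposite strand, was at 5.27 RPKM (control) and 1.69 RPKM (L1L2_Alb label) in iHBs, 8.21 RPKM (control) and 3.86 and 2.61 RPKM in iHPs, and 4.33 RPKM (control) and 6.68 and 4.72 RPKM in iBECs. *Prodh*, proline dehydrogenase, was at 9.39 RPKM (control) and 2.95 RPKM (L1L2_Alb label) in iHBs, 8.29 RPKM (control) and 4.56 and 2.24 RPKM in iHPs, and 1.96 RPKM (control) and 2.91 and 1.69 RPKM in iBECs. Both were lower in each of the L1L2_Alb-labelled iHB and iHP libraries, with log2 fold changes of -0.63 and -0.74 across stages and limma adjusted p values of 0.264 and 0.212. *Aass*, the entry of lysine breakdown, was at 0.85 RPKM (control) and 1.13 RPKM (L1L2_Alb label) in iHBs, 2.72 RPKM (control) and 1.11 and 2.57 RPKM in iHPs, and 2.98 RPKM (control) and 3.59 and 2.14 RPKM in iBECs. These differences had no common direction. The branched-chain keto acid dehydrogenase subunits are used by most cells. *Bckdha* was at 33.8 RPKM (control) and 31.8 RPKM (L1L2_Alb label) in iHBs, 27.5 RPKM (control) and 17.9 and 33.2 RPKM in iHPs, and 23.8 RPKM (control) and 29.3 and 32.9 RPKM in iBECs. *Bckdhb* ranged from 6.53 to 8.36 RPKM in the controls and from 3.07 to 6.94 RPKM in the L1L2_Alb-labelled libraries. The log2 fold changes of *Bckdha* and *Bckdhb* were 0.05 and -0.68 (limma adjusted p = 0.919 and 0.111).

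A subgroup of 6 members was picked as expressed by most tissues (*Ahcy*, *Got1*, *Gpt2*, *Qdpr*, *Bckdha* and *Bckdhb*), and it may leave out other such members. These 6 had a median log2 fold change of -0.36 with 0 of 6 lower and 1 higher, while 3 of them were lower at an unadjusted p under 0.05. With 3.37% of all genes lower and 6.2% higher, a count of 0 in 6 genes is no result about them. The 32 other tested genes had a median of -1.14, with 12 lower and 0 higher, and 0 were higher at an unadjusted p under 0.05 either. The subgroup was chosen with earlier results known, and the medians were not compared by a test.

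Whether the L1L2_Alb-labelled cells differed between culture conditions could be tested between iBECs and iHPs, with 2 libraries each, in a limma fit of the 6 conditions. Of the 38 genes, 12 were higher in iBECs (3.16% of all genes) and 0 were lower (0.507% of all genes, and 1 of the 38 was lower at an unadjusted p under 0.05), with a median difference of 0.99 against -0.01 over all genes and with 32 of 38 differences above 0. *Tat* rose most, from 0.14 and 0.079 RPKM in iHPs to 68.7 and 19.4 RPKM in iBECs, by 5.09 on the log2 scale (standard error 0.55, limma adjusted p = 0.00908). *Cps1* rose by 3.45 (limma adjusted p = 0.0381), *Haao* by 2.81 (0.0121), *Hgd* by 2.69 (0.0118), *Uroc1* by 2.57 (0.0313) and *Bhmt2* by 2.41 (0.0178). *Bhmt*, *Nags*, *Kmo*, *Cbs*, *Mat1a* and *Sardh* were the other genes that rose, by 2.11, 2.08, 2.01, 1.86, 1.74 and 1.501. *Uroc1* and *Kmo* reached the required mean of 1 RPKM only through the iBEC libraries, so their calls are no support for a rise in iBECs. The comparison of iBECs with iHPs and the one across stages share the L1L2_Alb-labelled libraries. The counts rest on every library, since 0 genes passed without either iHP replicate and 2 without either iBEC replicate. Fibroblast genes were also higher in these iBECs (3791 and 1705 RPKM summed, against 744 and 1199 RPKM in iHPs). So were macrophage genes (2509 and 3094 against 852 and 1371 RPKM). The biliary sum was higher (6733 and 11843 against 3064 and 3916 RPKM), with 3 of 8 tested biliary genes above 0 in this fit. The sum of the hepatoblast and hepatocyte markers was higher as well (18604 and 17911 against 14991 and 13094 RPKM), with 6 of 8 above 0. The part of these cell types in the difference was not tested.

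In control cells, with 1 library per stage and no test, the median level of these genes was higher after differentiation. From iHB to iHP 10 of the 38 tested genes were higher by at least 1 on the log2 scale (1.93% of all genes) and 0 were lower (1.65%). *Bhmt* led with a difference of 3.00, from 6.46 to 58.6 RPKM, followed by *Cps1* (1.99), *Mat1a* (1.89), *Bhmt2* (1.84), *Tat* (1.78), *Dmgdh* (1.51), *Gnmt* (1.12), *Hgd* (1.06), *Ahcy* (1.01) and *Aass* (1.01). Methionine cycle genes made up 6 of these 10. From iHB to iBEC 13 genes were higher (4.46% of all genes) and 5 were lower (14.9%). Among the 13, *Uroc1* and *Kmo* reached the mean of 1 RPKM only through the iBEC libraries. The highest differences were those of *Uroc1* (4.42), *Tat* (3.51), *Sds* (2.94), *Hgd* (2.79) and *Nags* (2.01), and *Hpd* (-3.55), *Prodh* (-1.81), *Gnmt* (-1.497), *Gpt2* (-1.49) and *Ass1* (-1.12) were the genes that were lower. The medians of the 38 genes were 0.30 for iHP and 0.44 for iBEC, against -0.18 and -0.44 over all genes. *Tdo2*, outside the test, reached 4.46 RPKM in control iBECs from 0 RPKM in control iHBs.

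**Figure D4:**
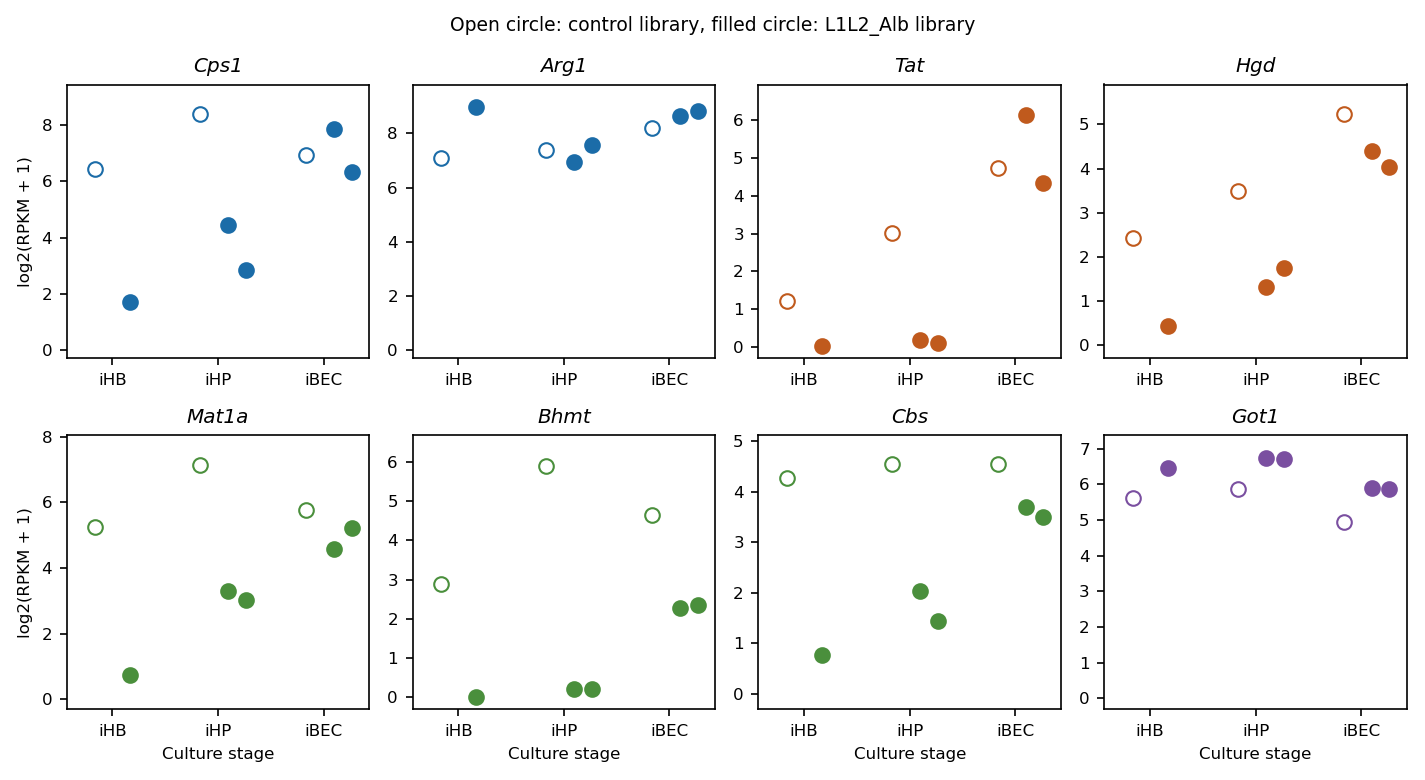
log2(RPKM + 1) of 8 of the genes in each library by stage, with control libraries as open and L1L2_Alb-labelled libraries as filled circles. *Bhmt*, *Mat1a*, *Cbs* and *Hgd* lie below the control at every stage, *Cps1* and *Tat* in iHBs and iHPs, *Arg1* lies above it in 4 of 5 libraries, and *Got1* lies above its control in all 5 libraries.

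Whether the effect of the label differed between stages was tested with a moderated F test in limma, with 2 residual degrees of freedom. It called 0 of the 38 genes (0% of all genes, where 0 of 13421 passed). The smallest adjusted p among the 38 was 0.275. An unadjusted p under 0.05 was found for 13 of the 38 genes, among them *Bhmt*, *Mat1a*, *Cps1* and *Hpd*. It was found for 733 of all 13421 genes, a smaller share. The differences between iBECs and the earlier stages in the size of the effect are therefore descriptions.

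Beyond the 41 genes, a wider list of 70 amino acid catabolism genes was examined. Of its 65 tested genes 15 were lower (3.37% of all genes) and 1 was higher (6.2% of all genes), with a median log2 fold change of -0.28. *Ftcd*, which passes the formimino group of histidine to folate, *Pipox*, which oxidizes pipecolate and sarcosine, and *Aspg*, an asparaginase, fell by 2.41, 2.17 and 2.00 on the log2 scale (limma adjusted p = 0.025, 0.0109 and 0.0183). *Suox*, sulphite oxidase, the end of cysteine breakdown, rose by 2.76 (standard error 0.26, limma adjusted p = 0.00149). It was at 10.8 RPKM (control) and 102 RPKM (L1L2_Alb label) in iHBs, 10.4 RPKM (control) and 72.9 and 121 RPKM in iHPs, and 7.65 RPKM (control) and 31.9 and 45.5 RPKM in iBECs. The genotypes did not overlap. A list of 12 genes of amino acid synthesis and use held *Gpt2*, one of the 41 genes. In it 0 were lower (3.37% of all genes) and 1 was higher (6.2% of all genes), counts near those shares. The higher gene was *Odc1*, which makes no amino acid but opens polyamine synthesis from ornithine (log2 fold change 0.77, limma adjusted p = 0.0452). The list had a median of 0.02 and 2 genes lower at an unadjusted p under 0.05. Of 14 tested regulators of these pathways 5 were lower (3.37% of all genes) and 1 was higher (6.2% of all genes). *Nr5a2*, *Gcgr*, which is the glucagon receptor, and *Prox1* led the decreases at -1.51, -1.48 and -1.42 (limma adjusted p = 0.00904, 0.022 and 0.0147) before *Foxa3* and *Hnf4a*. The increase was that of *Foxa2*, at 1.18 (limma adjusted p = 0.0351), a count near the share of all genes. Of 20 plasma protein genes 16 were lower, where 3.37% of all genes were, with a median of -2.16. The largest decreases were those of *Vtn* (vitronectin), *Hpx* (hemopexin) and *Serpinc1* (antithrombin), at -3.57, -3.01 and -2.99 (limma adjusted p = 0.00498, 0.00283 and 0.00222). Of 22 genes of fatty acid oxidation and ketogenesis 1 was lower, *Acaa2* (-0.95, limma adjusted p = 0.0469), a count near the share of all genes, with a median of -0.38.

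*Bhmt*, *Bhmt2* and *Dmgdh* follow each other as protein-coding genes on mouse chromosome 13, and all 3 fell. Promoter sequences from RefSeq (GRCm38.p6, matched by symbol, not the mm8 build named in the submitters' notes) were held for 31 of the 41 genes, as 250 bases before to 50 bases after the start of each gene. The bases upstream of *Bhmt*, the gene with the largest decrease, and of *Got1*, the gene that rose, are shown with CCAAT in capitals, written ATTGG where it is on the other strand, together with the stretch of 133 bases between the divergent starts of *Dmgdh* and *Bhmt2*, in which neither occurs.
Bhmt, chr13:93637759-93638008, minus strand: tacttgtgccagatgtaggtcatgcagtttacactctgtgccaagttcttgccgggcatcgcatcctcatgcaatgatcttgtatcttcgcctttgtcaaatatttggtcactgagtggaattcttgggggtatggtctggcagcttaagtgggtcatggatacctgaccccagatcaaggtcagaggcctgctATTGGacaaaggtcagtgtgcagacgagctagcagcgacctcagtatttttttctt
Got1, chr19:43524606-43524855, minus strand: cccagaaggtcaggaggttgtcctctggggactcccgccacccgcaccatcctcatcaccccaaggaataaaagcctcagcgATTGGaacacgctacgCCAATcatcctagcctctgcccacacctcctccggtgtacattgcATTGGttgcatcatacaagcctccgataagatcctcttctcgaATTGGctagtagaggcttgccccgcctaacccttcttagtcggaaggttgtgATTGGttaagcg
Between Bhmt2 and Dmgdh, chr13:93674303-93674435, plus strand: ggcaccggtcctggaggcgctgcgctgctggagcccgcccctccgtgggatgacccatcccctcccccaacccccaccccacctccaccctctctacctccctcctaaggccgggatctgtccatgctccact
Counting both strands, CCAAT was found in 15 of 31 genes (48.4%, against 41.1% of the 27025 genes with a promoter). *Got1* held 6 copies in its window, 5 of them in the 250 bases shown, and at least 6 were found in 24 of all genes (0.0888%). This was the largest number among the 31 genes, and the share was computed for that largest number, so it is no result about *Got1*. The TEAD motif GGAATG was found in 5 of 31 (16.1%, against 16.6%), namely *Fah*, *Gldc*, *Prodh*, *Sardh* and *Tdo2*, of which *Gldc* and *Sardh* were lower. The HNF4 motif CAAAGTCCA and the C/EBP motif TTGCGCAA were found in 0 of 31 (0.555% and 0.207% of all genes). These are matches of letters in a short window and show no binding. Each motif was searched as 1 exact word. The HNF4 and C/EBP words are so rare among all genes that 0 of 31 is no result about sites of these factors.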

How the data were processed

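RNA of the 8 libraries was made into TruSeq RNA libraries and sequenced on an Illumina HiSeq instrument. The authors deposited 1 table of RPKM per gene and library, scaled by gene length and library size. The unit was inferred from the values, as at least 22 short RNA genes per library lay at exactly 1 read, which also gave the library totals (18436865 to 33229075 reads). The submitters' processing notes name Bowtie 0.12.2 and mm8, and the counting and annotation are not given in the sources used here. Of 23471 entries, 4 of 2 repeated symbols were left out. Of the remaining genes 3442 were at 0 in all libraries.

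The log2(RPKM + 1) values of the 13421 genes whose mean reached 1 RPKM entered a limma model (version 3.58.1 under R 4.3.3, with lmFit and a trended eBayes) with terms for stage and genotype, which leaves 4 residual degrees of freedom. A fit of 6 conditions (2 residual degrees of freedom) gave the comparison of L1L2_Alb iBECs with iHPs and the F test. P-values are two-sided, with Benjamini-Hochberg adjustment over all genes and a threshold of 0.05. In comparisons with 1 library per arm, a difference of at least 1 was counted without a test. Reads were recovered for 39 of the 41 genes (not *Hgd* and *Cbs*) and used for floors of 3 reads, which cover counting error only. The values are not counts, so no count model was run.

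The 41 genes, the gene lists and the tests were chosen with earlier results of these data known. Every member past the threshold was named, and values in each library were given for the 3 tested members of each group with the largest absolute log2 fold change, for members that were higher, and for members whose L1L2_Alb libraries did not all go one way. In other lists, up to 3 of the largest changes past the threshold in each direction were named. Marker lists were given by their sums, and the marker genes named, like *Foxa3* and *Hnf4a* among the regulators, were chosen after their values were seen. Alternatives were a pseudocount of 0.1, upper-quartile scaling (percentile 75), quantile normalization, a filter at 5 RPKM or none, an untrended eBayes, leaving out each library of a pair or each stage, averaging the pairs, a threshold of 0.1 and, for the pairs, a replicate block. Tables and figures were made in Python 3.11.15 (pandas 2.3.3, numpy 2.4.6, matplotlib 3.10.9).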

Additional observations from a re-analysis of the deposited data

Results flagged for a closer look

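In 10 of the tested genes, each L1L2_Alb-labelled library of one stage lay on one side of its control and each of another stage on the opposite side. The share over all genes was not computed, so this count is no result about these genes as a set. These differences were not tested one by one, each stage has a single control library, and the F test across stages gave adjusted p values of 0.541 or more for all 10 (limma). The difference between effects, on the log2(RPKM + 1) scale, was 2.32 for *Ass1* (iBEC minus iHP, from -1.64 to 0.68), 5.51 for *Hpd* (iBEC minus iHP, from -3.71 to 1.80), -1.27 for *Sdsl* (iBEC minus iHP, from 0.75 to -0.53), -2.40 for *Sds* (iBEC minus iHB, from 0.44 to -1.96), 1.72 for *Gpt* (iBEC minus iHB, from -0.71 to 1.01) and 1.54 for *Gls2* (iBEC minus iHB, from -1.22 to 0.31). Smaller differences were those of *Asl* (-0.22, iBEC minus iHB), *Amt* (0.40, iHP minus iHB), *Aass* (-0.64, iHP minus iHB) and *Bckdha* (0.45, iBEC minus iHB). For *Hpd* the iBEC effect rests on 4 reads in the control library, against 312 and 15 reads.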

How the results depend on the processing

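Across 15 alternatives, the log2 fold changes of the 13 called genes kept their direction in all fits that gave one, and in 145 fits they also kept their call, while 46 lost it. Under the threshold of 0.1, which is among these alternatives, a called gene could not lose its call. The 12 decreases became 5 with no filter on low values, 2 without the iHB stage, 1 without the iHP stage, 21 without the iBEC stage and 7 with the pairs averaged, and 7 to 15 when 1 library of a pair was left out. The 1 increase became 0 when any stage was left out. Over all genes, the 452 decreases became 211 with no filter, 98, 19 and 873 without the iHB, iHP or iBEC stage, 257 with the pairs averaged, 814 at a threshold of 0.1, and 234 to 440 with 1 library left out. The 832 increases became 475 with no filter, 228, 113 and 523 without the iHB, iHP or iBEC stage, 1401 at a threshold of 0.1, and 480 to 887 with 1 library left out. Upper-quartile scaling gave 605 decreases and 586 increases, and quantile normalization 606 and 687. The cause of these shifts was not tested, but fits that leave out a stage or average the pairs have fewer libraries.

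Between L1L2_Alb iBECs and iHPs, the 12 genes that were higher became 0 with no filter and 0 to 2 with 1 library left out. Over all genes the 424 that were higher became 0 with no filter and 0 to 123 with 1 library left out, and the 68 that were lower became 44 with a pseudocount of 0.1, 0 with no filter and 0 to 3 with 1 library left out. With 1 library left, it was assumed to vary like the other pair. The replicate numbers do not pair the libraries, as the deviations of same-numbered libraries correlated at -0.0216 over genes and there are only 2 pairs. A fit with the replicate block gave 16 of the 38 genes higher and 713 higher and 191 lower over all genes. The F test called 0 genes under each alternative run.

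Genes near 0 changed sign without being called. For the genotype effect these were *Amt* (-0.017) and *Bckdha* (-0.02795) under upper-quartile scaling, *Gpt* (0.027) and *Bckdha* (-0.10) under quantile normalization, *Gpt* (0.15) without the iHB stage, *Asl* (0.0061), *Amt* (-0.079), *Sdsl* (-0.30), *Gpt* (0.27) and *Aass* (0.046) without the iHP stage, *Asl* (0.035), *Sds* (0.13) and *Bckdha* (-0.13) without the iBEC stage, and *Asl* (0.0021) with the pairs averaged. With 1 library of a pair left out, the values ran through 0 from -0.0607 to 0.0471 for *Asl*, -0.188 to 0.0801 for *Qdpr*, -0.0426 to 0.175 for *Amt*, -0.0877 to 0.188 for *Sdsl*, -0.218 to 0.0148 for *Aass* and -0.0553 to 0.201 for *Bckdha*. For iBECs against iHPs they ran from -0.282 to 0.612 for *Qdpr*, -0.400 to 0.324 for *Amt*, -0.246 to 0.438 for *Sdsl*, -0.606 to 0.0244 for *Gpt2*, -0.778 to 0.00136 for *Prodh* and -0.0930 to 0.763 for *Bckdha*. Depth limits genes with a few reads, such as *Otc* and *Tat* in the L1L2_Alb-labelled iHB library.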
